A study of Mus musculus with 2 samples.

Results

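The Mir106b to Mir25 cluster and the Mir106a to Mir363 cluster are the paralogs of the Mir17 to Mir92-1 cluster, and their 9 hairpin loci were read here in mouse midbrain at embryonic day 13.5. The members were taken by GENCODE symbol, matched through the Ensembl ID, and all 9 were found among the 1973 loci of the tables. The Mcm7 intron cluster has 3 members (Mir106b, Mir93, Mir25). The X chromosome cluster has 6 (Mir106a, Mir18b, Mir20b, Mir19b-2, Mir92-2, Mir363). The series has 1 group, midbrain tissue of B6NCrl embryos, mixed male and female, untreated as far as the labels say, in 2 samples labelled as biological replicates, with 1 library of RNA under 30 nt each. The labels tie both to 1 donor record and give neither the number of embryos nor the litters behind a sample, so the spread between these samples may be technical. The tables allow no comparison between conditions, so the comparisons are between the clusters within each library and between the libraries.

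MicroRNA clusters of this kind are transcribed as 1 long RNA, which is cut into hairpins and then into mature strands of about the length sequenced here. A mature microRNA finds its targets mainly through its seed, bases 2 to 8 counted from the 5′ end, so loci with the same seed are grouped as a family. The clusters are known for promoting cell cycle progression and survival by lowering cell cycle inhibitors and proapoptotic proteins, and the miR-17 and miR-106b clusters are active in neural progenitors. Mcm7, the host of the smaller cluster, encodes a subunit of the helicase that opens DNA for replication.

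The mature sequences are shown first because they decide both the families and which reads can be counted at 1 locus. All 9 members matched RefSeq microRNA entries (GRCm38.p6), and 1 strand per hairpin is printed with its seed in capitals. The miR-17 family, with the seed of miR-17, was represented by 4 members.
Mir106b (miR-106b-5p): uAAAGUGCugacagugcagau
Mir93 (miR-93-5p): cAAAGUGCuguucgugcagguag
Mir106a (miR-106a-5p): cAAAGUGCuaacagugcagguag
Mir20b (miR-20b-5p): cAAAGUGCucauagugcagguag
For comparison, the leading locus of the chromosome 14 cluster has the same seed.
Mir17 (miR-17-5p): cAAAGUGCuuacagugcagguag

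The miR-92 family was represented by 3 members, which differ in the bases after the seed.
Mir25 (miR-25-3p): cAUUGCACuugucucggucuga
Mir92-2 (miR-92a-3p): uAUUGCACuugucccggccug
Mir363 (miR-363-3p): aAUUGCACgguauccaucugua
The miR-18 and miR-19 families had 1 member each, and the chromosome 14 paralog of Mir18b is printed beside it.
Mir18b (miR-18b-5p): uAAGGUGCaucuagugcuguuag
Mir18 (miR-18a-5p): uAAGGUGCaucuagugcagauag
Mir19b-2 (miR-19b-3p): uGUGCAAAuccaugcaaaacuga

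Positions are counted from 1 at the 5′ end, with the chromosome 14 base first. Relative to miR-17-5p, miR-106a-5p carries 1 substitution (U10A) and miR-20b-5p carries 2 (U10C and C12U). Relative to miR-18a-5p, miR-18b-5p carries A18U and A20U. miR-93-5p carries 4 substitutions relative to miR-17-5p (U10G, A11U, C12U and A13C). miR-106b-5p carries 3 relative to miR-20a-5p over 21 positions (U10G, U12C and G20A), and miR-25-3p carries 3 relative to miR-92a-3p over 21 positions (U1C, C14U and C18U). miR-363-3p stands apart: its nearest other mature sequence in RefSeq, miR-367-3p, differs at 8 of 22 positions.

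Mir92-2 and Mir19b-2 make the same mature strand as a locus on chromosome 14. The hairpins of Mir92-2 and Mir92-1 share an exact run of 22 nt around miR-92a-3p, and those of Mir19b-2 and Mir19b-1 a run of 25 nt around miR-19b-3p. The difference begins directly after the mature strand, as the hairpins of the miR-92a loci show (annotated mature strands in capitals).
Mir92-2 hairpin: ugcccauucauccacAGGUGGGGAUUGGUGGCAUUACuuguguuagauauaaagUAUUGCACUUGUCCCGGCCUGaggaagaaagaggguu
Mir92-1 hairpin: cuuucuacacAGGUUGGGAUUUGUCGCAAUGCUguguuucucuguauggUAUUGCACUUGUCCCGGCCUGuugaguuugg
The counts leave out multimapping reads, so the values of Mir92-2, Mir92-1, Mir19b-2 and Mir19b-1 are not the level of miR-92a or miR-19b and are uncertain. The other 7 members have no identical stretch of 20 nt with any other hairpin in RefSeq, the longest being 17 nt between Mir18b and Mir18. Multimapping reads were 34.4% of all reads in replicate 1 and 37.7% in replicate 2.

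On mm10 the Mcm7 intron cluster spans 498 nt of the minus strand of chromosome 5. Mir106b (ENSMUSG00000065514.1) lies at chr5:138165737-138165818, Mir93 (ENSMUSG00000065527.1) at chr5:138165523-138165610 and Mir25 (ENSMUSG00000065394.1) at chr5:138165321-138165404. All 3 lie in intron 13 of a protein-coding Mcm7 transcript of 15 exons, and Mir93 and Mir25 also fall in exon 1 of an Mcm7 transcript annotated as a retained intron. The X chromosome cluster spans 875 nt, also on the minus strand, from Mir106a (ENSMUSG00000065456.1, chrX:52742503-52742567) to Mir363 (ENSMUSG00000070106.1, chrX:52741693-52741767). Of the Mir106a hairpin, 5 bases overlap the last exon of the noncoding gene Kis2, and the other 5 loci of the cluster lie in no annotated transcript of their strand. Mir18b (ENSMUSG00000077111.2) lies at chrX:52742331-52742413, Mir20b (ENSMUSG00000076041.1) at chrX:52742113-52742192, Mir19b-2 (ENSMUSG00000065473.1) at chrX:52741983-52742066 and Mir92-2 (ENSMUSG00000065613.1) at chrX:52741838-52741928. Hairpins of the Mcm7 intron had a GC content of 55.7% to 63.1%, against 38.1% to 47.3% in the X chromosome cluster, with no overlap.

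Replicate 1 held 5093743 same-strand counts over all loci and replicate 2 held 2935841, and levels are given as CPM, counts scaled to these totals. CPM was not divided by locus length, since the mature strands printed above are all 21 to 23 nt long. The limit used for a count of 0 is 3 counts, or 0.589 CPM in replicate 1 and 1.02 CPM in replicate 2. Intervals elsewhere are two-sided 95% exact Clopper-Pearson intervals, which, like these limits, cover counting error only. Of the neural markers (miR-9, miR-124, miR-128, Mir92b and Mir135a-2), 9 of 10 were in the tables, and all 9 had counts in both libraries, summing to 10115 and 11609 CPM. Mir92b, itself a locus with the miR-92 seed, made up 8440 and 9987 CPM of these. The 3 loci of miR-124, a defining neuronal microRNA, and Mir9-2 stood at only 1.57 to 9.42 CPM, and the part of multimapping reads in this was not tested. Markers of other tissues summed to 58.9 and 139 CPM for liver (Mir122), 93.4 and 86.9 CPM for erythroid cells (3 of 3 loci), 14.7 and 10.6 CPM for muscle (Mir206 alone, with Mir1a-1, Mir133a-1 and Mir133a-2 at 0), 172 and 224 CPM for leukocytes (Mir223 and Mir150) and 16256 and 21170 CPM for endothelium (Mir126a).

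In uniquely mapped reads the Mcm7 intron cluster was among the abundant microRNA loci of the tissue and stood about 9 times above the X chromosome cluster. It held 178437 counts, 3.50% of the total (interval 3.49 to 3.52), in replicate 1 and 93298 counts, 3.18% (3.16 to 3.20), in replicate 2, or 3.34% ± 0.230 (SD, n = 2). The X chromosome cluster held 19718 counts, 0.387% (0.382 to 0.393), and 9873 counts, 0.336% (0.330 to 0.343), or 0.362% ± 0.0359 (SD, n = 2). The ratio of the clusters was 9.05 (8.92 to 9.18) in replicate 1 and 9.45 (9.26 to 9.65) in replicate 2. The libraries thus gave the same order of clusters, and their ratios differed beyond counting error. The X chromosome sum lacks the multimapping reads of Mir92-2 and Mir19b-2, and the effect of these reads on the ratio was not tested. No test was run over the 2 libraries, for which an exact sign-flip test gives a two-sided p of at least 0.5.

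The chromosome 14 cluster (Mir17, Mir18, Mir19a, Mir20a, Mir19b-1 and Mir92-1) gives the scale of the third paralog. It held 7.54% and 6.08% of the counts, 2.15 times (2.14 to 2.16) the Mcm7 intron cluster in replicate 1 and 1.91 times (1.90 to 1.93) in replicate 2. Against the X chromosome cluster it stood at 19.5 times (19.2 to 19.8) and 18.1 times (17.7 to 18.5). Of the counts of the 3 clusters together, the Mcm7 intron supplied 30.6% and 33.1% and the X chromosome cluster 3.39% and 3.50%. The chromosome 14 and X chromosome sums lack multimapping reads of Mir92-1, Mir19b-1, Mir92-2 and Mir19b-2.

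**Figure D1:**
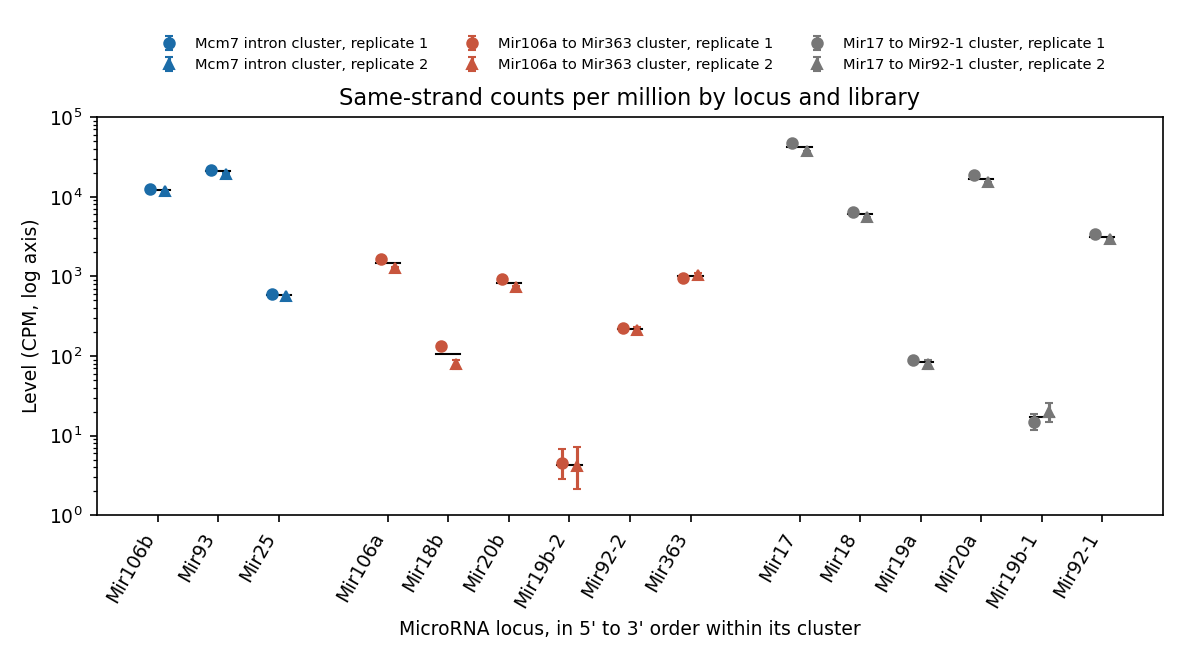
Level of each locus in CPM (log axis) for the Mcm7 intron, Mir106a to Mir363 and Mir17 to Mir92-1 clusters, in 5′ to 3′ order within each. Circles are replicate 1, triangles replicate 2, error bars 95% exact binomial intervals and black lines means. Mir93 and Mir106b average 20765 and 12061 CPM, whereas the highest locus of the X chromosome cluster, Mir106a, averages 1463 CPM.

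Mir93 and Mir106b, the miR-17 family members of the Mcm7 intron, made up nearly the whole of that cluster. Mir93 had 112054 counts (21998 CPM) in replicate 1 and 57340 (19531 CPM) in replicate 2, a mean of 20765 ± 1745 CPM (SD, n = 2), place 10 of 1973 loci. Its neighbours in that order were Mir487b (21992 ± 1093 CPM) above and Mir30e (19928 ± 2105 CPM) below. Their ranges overlapped that of Mir93, so its place is not resolved. This and the other places given are for uniquely mapped reads, so loci that lose multimapping reads may stand too low in the order. Mir106b had 63340 counts (12435 CPM) and 34312 (11687 CPM), a mean of 12061 ± 529 CPM (SD, n = 2), place 17. The ranges of its neighbours, Mir20a of the chromosome 14 cluster above (16879 ± 2464 CPM) and Mir135b below (11089 ± 478 CPM), did not overlap that of Mir106b. The ratio of Mir93 to Mir106b was 1.77 (1.75 to 1.79) in replicate 1 and 1.67 (1.65 to 1.69) in replicate 2.

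Mir25, the miR-92 family member of the same intron, was the minor product. It had 3043 counts (597 CPM) in replicate 1 and 1646 (561 CPM) in replicate 2, a mean of 579 ± 26.0 CPM (SD, n = 2), place 113 between Mir374b (589 ± 33.3 CPM) and Mir101a (577 ± 35.0 CPM), whose ranges it overlapped. It made up 1.71% (1.65 to 1.77) of the cluster in replicate 1 and 1.76% (1.68 to 1.85) in replicate 2. Mir106b exceeded it 20.8-fold in each library (intervals 20.1 to 21.6 and 19.8 to 21.9), and Mir93 by 36.8-fold (35.5 to 38.2) and 34.8-fold (33.2 to 36.6). The 3 hairpins come from 1 intron, with gaps of 126 and 118 nt, and are printed with their annotated mature strands in capitals because neighbours on 1 transcript differed this far in level.
Mir106b hairpin: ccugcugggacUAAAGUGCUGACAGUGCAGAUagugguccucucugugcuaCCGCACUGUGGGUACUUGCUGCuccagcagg
Mir93 hairpin: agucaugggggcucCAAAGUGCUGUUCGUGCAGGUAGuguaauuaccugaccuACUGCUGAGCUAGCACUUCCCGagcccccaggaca
Mir25 hairpin: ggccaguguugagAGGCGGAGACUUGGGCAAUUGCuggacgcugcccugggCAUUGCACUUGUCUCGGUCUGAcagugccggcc
The tables count a hairpin as a whole, so the strand from which the counts of Mir25 came was not told apart, and no member had a count on the opposite strand of the genome.

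Counts of the X chromosome cluster were spread over more members. Mir106a, the first hairpin of the cluster along its strand, had 8344 counts (1638 CPM) in replicate 1 and 3782 (1288 CPM) in replicate 2. Its mean was 1463 ± 247 CPM (SD, n = 2), and it made up 42.3% and 38.3% of the cluster. Mir20b, the other miR-17 family member, had 4665 counts (916 CPM) and 2141 (729 CPM), or 23.7% and 21.7% of the cluster. Mir363, a miR-92 family member at the other end of the cluster, had 4868 counts (956 CPM) and 3084 (1050 CPM), or 24.7% (24.1 to 25.3) and 31.2% (30.3 to 32.2). Mir106a was thus the highest of the cluster in both libraries, followed by Mir363 and then Mir20b, with no overlap between the ranges of neighbours.

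The other 3 members of the X chromosome cluster were low. Mir92-2 had 1148 counts (225 CPM) in replicate 1 and 622 (212 CPM) in replicate 2. Mir18b, the miR-18 family member, had 670 (132 CPM) and 232 (79.0 CPM). Mir19b-2, of the miR-19 family, had 23 (4.52 CPM, interval 2.86 to 6.78) and 12 (4.09 CPM, 2.11 to 7.14) and was the lowest of the 9. Over both clusters the order was Mir93, Mir106b, Mir106a, Mir363, Mir20b, Mir25, Mir92-2, Mir18b and Mir19b-2, and at no step did the values of neighbours overlap between the libraries.

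**Figure D2:**
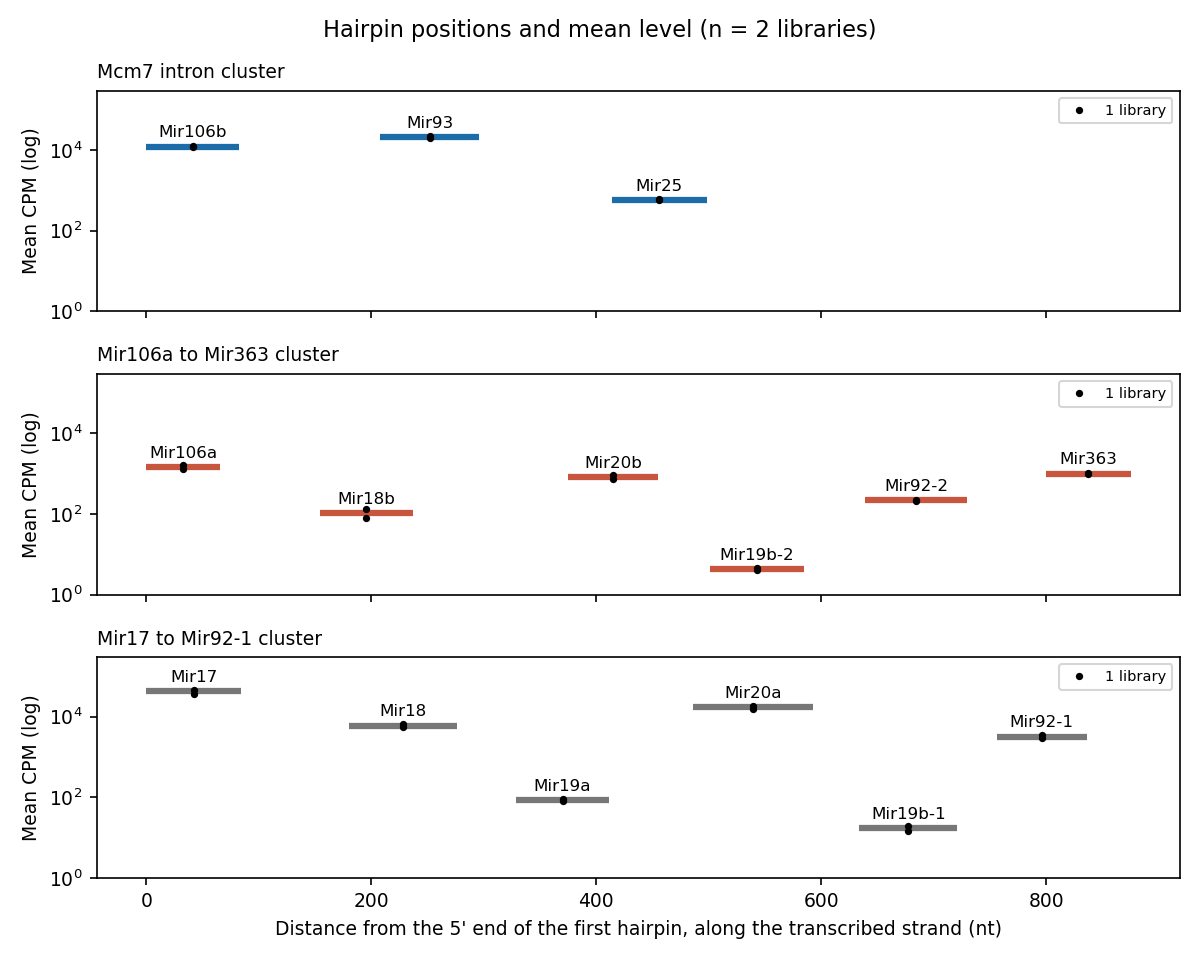
Hairpins of the 3 clusters by distance from the 5′ end of the first hairpin along the transcribed strand (nt), with the mean CPM on a log axis. Bars span each hairpin at its mean level and points are the 2 libraries. In the 6-hairpin clusters the first hairpin is the highest (Mir106a at 1463 CPM, Mir17 at 41984 CPM) and the counts of the miR-19 hairpins are the lowest, with multimapping reads left out.

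Along the strand, the X chromosome cluster and its chromosome 14 paralog had their highest and lowest counts at the same kinds of hairpin, among those they share. In both, the first hairpin led (Mir106a at 1463 ± 247 CPM, Mir17 at 41984 ± 6815 CPM), the miR-20 hairpin came next (Mir20b at 823 ± 132 CPM, Mir20a at 16879 ± 2464 CPM) and the miR-19b hairpin was last (Mir19b-2 at 4.30 ± 0.303 CPM, Mir19b-1 at 17.3 ± 3.42 CPM; all SD, n = 2). The order of the miR-18 and miR-92 hairpins differed: Mir92-2 exceeded Mir18b, whereas Mir18 (5991 ± 657 CPM) exceeded Mir92-1 (3167 ± 364 CPM). The 2 miR-19b loci share a mature strand, as do Mir92-2 and Mir92-1, and reads mapping to both are missing from these counts, so neither the last place of miR-19b nor the order of miR-18 and miR-92 is settled. Mir19a on chromosome 14, whose mature strand has no second locus, was also low, at 88.5 and 78.7 CPM. Mir363 has no counterpart on chromosome 14.

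By family, the clusters had different compositions. The miR-17 family supplied 98.3% and 98.2% of the Mcm7 intron cluster and 86.8% and 86.0% of the chromosome 14 cluster, but 66.0% and 59.99% of the X chromosome cluster. The miR-92 family supplied 30.5% and 37.5% of the X chromosome cluster, against 1.71% and 1.76% of the Mcm7 intron cluster and 4.54% and 4.78% of the chromosome 14 cluster. These shares leave out reads of miR-92a that map to several places, which bears on the X chromosome and chromosome 14 clusters and not on Mir25. They count whole hairpins, so reads of the strand without the seed are included.

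The level of each member relative to a chromosome 14 locus, within a library, needs no scaling between libraries. Mir106a stood at 3.50% (3.42 to 3.58) of Mir17 in replicate 1 and 3.47% (3.35 to 3.58) in replicate 2. Mir20b stood at 1.96% (1.90 to 2.01) and 1.96% (1.88 to 2.05) of Mir17. Both ratios were the same within counting error, although the level of Mir17 itself was 46804 CPM in replicate 1 and 37165 CPM in replicate 2. Mir106a and Mir17 differ in 1 base (U10A) and Mir20b and Mir17 in 2. Whether reads of Mir17 with a changed base were counted at these loci was not tested.

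For Mir18b, Mir93, Mir106b, Mir25 and Mir363 the intervals of such ratios did not overlap between the libraries. Mir18b stood at 2.04% (1.88 to 2.20) of Mir18 in replicate 1 and 1.43% (1.25 to 1.63) in replicate 2. Mir93 stood at 47.0% (46.7 to 47.3) and 52.6% (52.0 to 53.1) of Mir17, and Mir106b at 26.6% (26.3 to 26.8) and 31.4% (31.1 to 31.8). Mir25 stood at 17.4% (16.8 to 18.1) and 19.3% (18.3 to 20.3) of Mir92-1, and Mir363 at 27.9% (27.0 to 28.8) and 36.1% (34.6 to 37.6). Mir92-1 lacks the miR-92a reads that map to both its loci, so the ratios of Mir25 and Mir363 to it may be too high. For Mir92-2 the ratio to Mir92-1, whose count also lacks multimapping reads, was 6.58% (6.19 to 6.99) and 7.28% (6.70 to 7.90), and for Mir19b-2 to Mir19b-1 30.3% (18.1 to 48.8) and 20.7% (10.1 to 38.9), and these intervals overlapped.

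**Figure D3:**
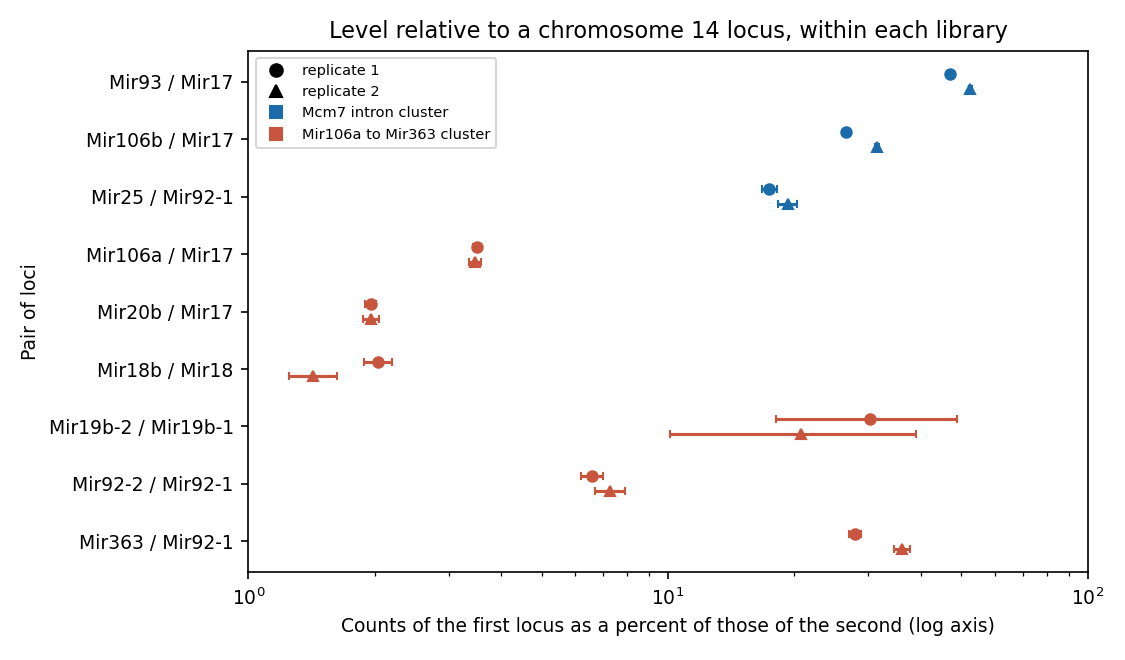
Counts of each member as a percent of those of a chromosome 14 locus (log axis), within replicate 1 (circles) and replicate 2 (triangles), with 95% exact binomial intervals. Mir106a at 3.50% and 3.47% and Mir20b at 1.96% of Mir17 coincide between the libraries, whereas Mir363 (27.9% and 36.1% of Mir92-1) and Mir18b (2.04% and 1.43% of Mir18) do not. The counts of Mir92-1 and Mir19b-1 lack multimapping reads.

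Seen from the families, the Mcm7 intron was the second source of miR-17 family counts and a minor source of miR-92 family counts. Counts of a family are those of whole hairpins with its seed on 1 strand, so reads of the other strand are included. Loci with the miR-17 seed held 10.2% of all counts in replicate 1 and 8.55% in replicate 2. The Mcm7 intron supplied 33.6% and 36.5% of these (35.1% ± 2.03, SD, n = 2), the X chromosome cluster 2.49% and 2.36%, and the chromosome 14 cluster 63.9% and 61.1%. A seventh locus with this seed, Mir6383, had no count in either library (limits of 0.589 and 1.02 CPM at 3 counts).

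Loci with the miR-92 seed held 1.393% and 1.502% of all counts. The sources of this family are given for uniquely mapped reads, without the miR-92a reads that map to both Mir92-1 and Mir92-2, so their order may differ for the mature strands. Here the order of the members' clusters was the reverse, with 8.48% and 8.41% from the X chromosome (Mir363 and Mir92-2) and 4.29% and 3.73% from the Mcm7 intron (Mir25). Loci outside the clusters supplied 62.7% and 68.5%, most of it from Mir92b, a microRNA of neural progenitors, at 8440 and 9987 CPM. Mir32 stood at 289 and 296 CPM, and Mir367, of the pluripotency cluster, had 0 and 1 counts. Mir25 stood at 7.08% (6.82 to 7.34) and 5.61% (5.34 to 5.90) of Mir92b. The X chromosome cluster supplied 2.00% and 1.41% of the counts of the miR-18 loci. Of the uniquely mapped counts of the miR-19 loci it supplied 4.18% and 3.99%. The strand behind the unique counts of the miR-19b and miR-92a loci was not told apart, so these need not be reads with the seed.

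**Figure D4:**
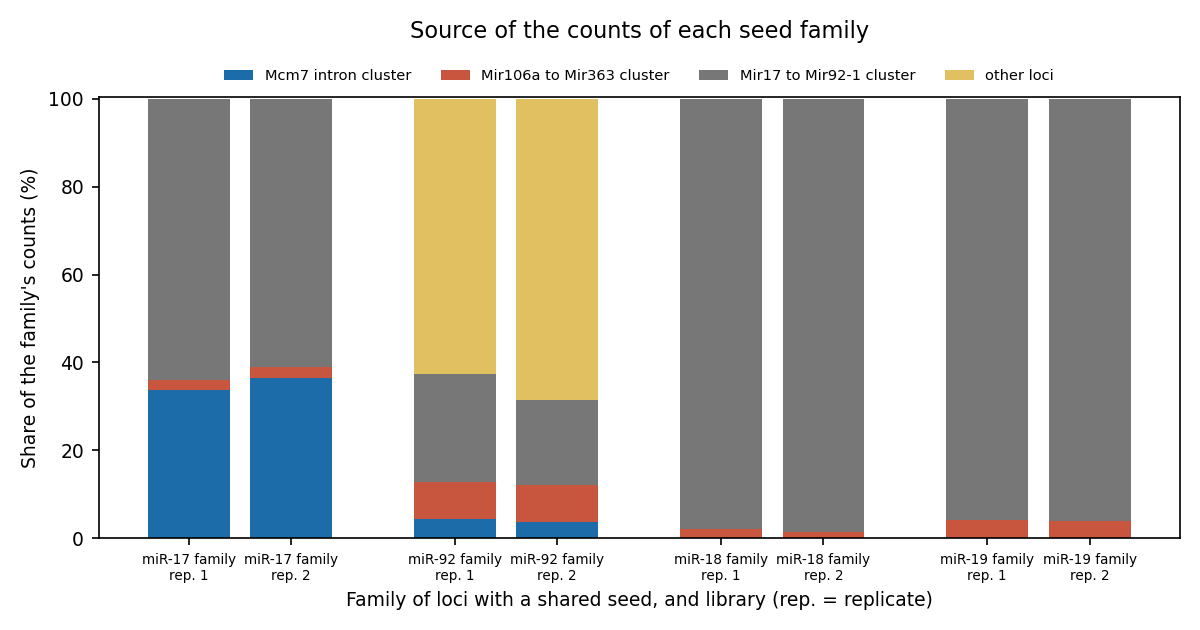
Share of the counts of each seed family (percent) that came from the Mcm7 intron cluster, the X chromosome cluster (Mir106a to Mir363), the chromosome 14 cluster (Mir17 to Mir92-1) and other loci, 1 bar per library. Counts are of whole hairpins, with multimapping reads left out. The Mcm7 intron supplies 33.6% and 36.5% of the miR-17 family but 4.29% and 3.73% of the miR-92 family, where loci outside the clusters lead with 62.7% and 68.5%.

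Between the libraries, members of the X chromosome cluster moved in different directions. Loci were tested singly with the exact conditional binomial test (two-sided), on library sizes scaled by TMM (a factor from edgeR that sets the bulk of loci equal), with Benjamini-Hochberg adjustment over 466 loci with at least 10 counts. The test called 5 of the 9 members, and 38.0% of all loci tested. Of the members, 4 were higher in replicate 1, as were 18.7% of all loci, 1 was higher in replicate 2, as were 19.3%, and 4 were not called. Over all loci the calls were 87 higher in replicate 1 and 90 higher in replicate 2, or 112 and 69 with total counts as the only scaling. The log2 ratio (replicate 1 over replicate 2) had a median of 0.069 over the 9 members and of -0.0041 over all loci tested. The test compares 2 libraries of 1 group, takes in no spread between animals, and, at these depths, calls small differences. Loci with few counts are called less often: with a minimum of 50 counts, 173 of 331 loci and 6 of 8 members were called.

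Mir18b had the widest difference, with a log2 ratio of 0.67 (adjusted p = 2.5e-09, exact conditional binomial test). Its CPM, without TMM scaling, was 1.66-fold higher in replicate 1. Mir106a followed with 0.28 (adjusted p = 1.3e-22, exact test) and Mir20b with 0.26 (adjusted p = 1.5e-11, exact test), both higher in replicate 1. In the same cluster Mir363 went the other way, with a log2 ratio of -0.20 (adjusted p = 6.9e-09, exact test), higher in replicate 2. The ratio of Mir106a to Mir363 was 1.71 (1.65 to 1.78) in replicate 1 and 1.23 (1.17 to 1.29) in replicate 2, and that of Mir20b to Mir363 0.958 (0.920 to 0.998) and 0.694 (0.657 to 0.734). These ratios do not depend on scaling, and their intervals did not overlap. By contrast, the ratio of Mir106a to Mir20b was 1.79 (1.73 to 1.85) and 1.77 (1.67 to 1.86).

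Mir17 and Mir20a, the chromosome 14 loci with the seed of Mir106a and Mir20b, were also higher in replicate 1, with log2 ratios of 0.27 and 0.23. Of the Mcm7 intron loci with this seed, Mir93 was higher in replicate 1 (0.10) and Mir106b was not called (0.023). Of the loci with the seed of Mir363, Mir92b was higher in replicate 2 (-0.31), Mir92-1 was higher in replicate 1 (0.17), and Mir25, Mir92-2 and Mir32 were not called. Whether the direction goes with the seed was not tested. Summed marker levels in replicate 2 were 1.15 times those of replicate 1 for the neural list (9 loci), but 0.968 times for its 8 loci without Mir92b, a split chosen after seeing the data. They were 1.30 times for the endothelial Mir126a, 1.31 times for 2 leukocyte loci, 2.37 times for the liver locus Mir122, 0.929 times for 3 erythroid loci and 0.717 times for the muscle list. The part of these cell types, or of the 1.74 times greater depth of replicate 1, in the differences between members was not tested. In a bulk sample fewer cells of a type and less RNA per cell cannot be told apart.

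In the Mcm7 intron cluster the libraries were close. Mir93 was higher in replicate 1 with a log2 ratio of 0.10 (adjusted p = 1.1e-44, exact conditional binomial test). Its CPM, without TMM scaling, was 1.13-fold higher. Mir106b had a log2 ratio of 0.023 (adjusted p = 0.0504, exact test) and Mir25 one of 0.025 (adjusted p = 0.740, exact test). Mir106b passed with DESeq2 size factors (adjusted p = 0.0142, exact test), with total counts only, with no filter and with a minimum of 50 counts. Mir92-2 and Mir19b-2 of the X chromosome cluster did not pass either, at 0.022 and 0.069. Of the 9 members, 8 lay within 1.5-fold between the libraries, against 377 of 466 loci tested, and Mir18b was the exception. Among loci with a mean of 100 CPM or more, the counts were 7 of 8 members and 192 of 205 loci. In the chromosome 14 cluster the test called 4 of 6 loci, each higher in replicate 1.

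**Figure D5:**
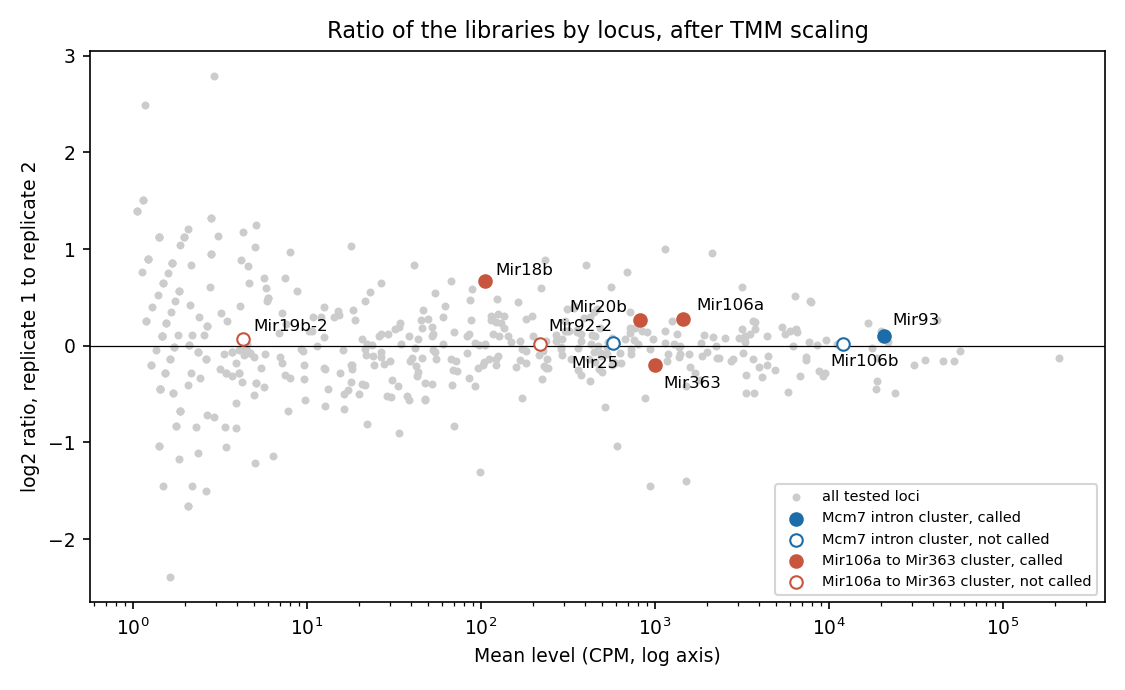
The log2 ratio of replicate 1 to replicate 2 after TMM scaling against mean CPM (log axis), for 466 tested loci (grey) and the members (filled where called by the exact conditional binomial test, open where not). Mir18b, Mir106a and Mir20b lie above 0 at 0.67, 0.28 and 0.26, Mir363 lies below at -0.20, and the Mcm7 intron loci lie between 0.023 and 0.10.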

How the data were processed

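MicroRNA-seq libraries of RNA under 30 nt were made from 2 midbrain samples of embryonic day 13.5. The authors deposited whole-number read counts for each locus, made on mm10 with annotation M4 per the deposited notes. Not given in the sources used here are the aligner, the counter and the read filters. From the values, the 3 count columns were read as unstranded, same-strand and opposite-strand (the first equals the sum of the others in 3946 of 3946 rows), and same-strand counts were used. Summary rows that name no gene (54.3% and 57.2% of all reads, multimapping reads included) stayed out of totals and tests.

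Symbols and coordinates came from GENCODE M21, on the same assembly (1894 of 1973 IDs matched, with the same ID version for each locus of the clusters and seed families). Sequences are RefSeq's (GRCm38.p6). CPM, exact intervals (scipy 1.17.1), TMM factors (edgeR 4.0.16) and log2 ratios with a pseudocount of 0.5 CPM were computed here. edgeR could fit no contrast with 1 group, so libraries were compared by the exact conditional binomial test, with calls at an adjusted p of 0.05. The test was tried on simulated counts with counting error only, so that trial does not cover spread between real libraries. Alternatives tried were scaling by DESeq2 1.42.0 or by total counts, a pseudocount of 1 CPM, other count minimums, unstranded counts, thinning, a fold of 1.5, other denominators and each replicate left out. Named loci are the 9 members, the chromosome 14 paralogs, other loci with a member's seed and the neighbours in rank of the Mcm7 loci. Members and lists were chosen with earlier results of these data known.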

Additional observations from a re-analysis of the deposited data

How the results depend on the processing

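The clusters kept their order, with the Mcm7 intron above the X chromosome cluster, under each alternative run, but this is no check of that order. Other denominators scale both clusters alike, and no member had opposite-strand counts for the unstranded alternative to add. Leaving out loci took counts only from the lower cluster, and leaving out a replicate only gives the ratio of the other library. No alternative added the multimapping reads of Mir92-2 and Mir19b-2 to their cluster. The share of the Mcm7 intron was 1.84% with multimapping reads in the denominator and 4.22% without Mir99a in it, and that of the X chromosome cluster 0.200% and 0.457%. Leaving out a replicate gave 3.18% to 3.50%, 0.336% to 0.387%, and a cluster ratio of 9.05 to 9.45 around a mean of 9.25. The ratio was 9.86 without Mir19b-2 and Mir92-2 and, in alternatives chosen after seeing the data, 15.5 without Mir106a and 33.5 with Mir363 alone standing for its cluster, where fewer loci are summed by construction. Loci called between the libraries were 164 to 183 under 6 alternatives, but the number tested differed. Called were 173 of 331 with at least 50 counts and 179 of 719 with no filter. The split of higher in replicate 1 against higher in replicate 2 was 87 and 90 with TMM but 112 and 69 with total counts only. With a required fold of 1.5 the loci called were 34 of 466, and 1 member, Mir18b, remained called. Members called were 5 or 6 under the other alternatives, the sixth being Mir106b. The ratio of Mir19b-2, which was not called, turned to -0.060 with replicate 1 thinned, and no other member changed direction. With 1 group there was no replicate block to fit across groups, and the cluster ratios are already taken within each library. The depth leaves Mir19b-2, at 23 and 12 counts, with the widest intervals, and no test over the 2 libraries was run.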
